A study of Homo sapiens with 23 samples.

Results

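The nuclear-encoded respiratory chain genes were taken by symbol. They are the protein-coding genes outside the mitochondrial genome that begin with NDUFA, NDUFB, NDUFC, NDUFS or NDUFV, the genes SDHA to SDHD, and those that begin with UQCR, COX4 to COX8 or ATP5, without the assembly factors NDUFAF and SDHAF. The rule used no measured value, though it was chosen with earlier results of these data known. It found 90 genes among the 36085 genes with a transcript in the RNA-seq files. Complex I held 38 of them, complex II 4, complex III 9, complex IV 19 and complex V 20. NDUFA4 and NDUFA4L2, named for complex I but known as subunits of complex IV, were placed in complex IV. The readthrough genes NDUFC2-KCTD14 and ATP5MF-PTCD1 met the rule and were kept, and 84 of the 90 genes passed the filter on low counts.

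The samples were NCCITs, a human embryonal carcinoma cell line with stem-like properties, made into SCi-NCCITs by a doxycycline-inducible dCas9-KRAB and 2 sgRNAs against SVAs, a young family of human transposons, whose target sequence is shared with LTR5Hs, another family. KRAB is a repressor domain that brings H3K9me3, a mark of silenced chromatin, to the sites the sgRNAs find. Both groups carried dCas9-KRAB and the sgRNAs and differed by doxycycline (2 µg/mL for 72 hours). RNA was measured in 3 libraries without doxycycline and 3 with it, YY1 in 2 and 2, H3K9me3 in 2 and 2 plus 1 library of NCCITs without dCas9-KRAB, and OCT4 in 1 and 1. Stable clones were isolated after the dCas9-KRAB plasmid was introduced, and how many make up the line is not given in the sources used here. Doxycycline is known to inhibit the mitochondrial ribosome, and none of these libraries came from cells given doxycycline without dCas9-KRAB or the sgRNAs. The effects of the drug, of dCas9-KRAB and of the repression of SVAs or LTR5Hs on the values below cannot be told apart.

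The respiratory chain moves electrons from NADH (complex I) and succinate (complex II) through ubiquinone, complex III and cytochrome c to oxygen (complex IV), and complex V uses the proton gradient this builds to make ATP. Complexes I, III, IV and V are mosaics of subunits encoded in the nucleus and in mitochondrial DNA, while complex II is encoded in the nucleus alone. YY1, NRF1 and ETS factors such as GABP are known regulators of nuclear genes for mitochondrial proteins, and pluripotent cells rely on glycolysis more than most differentiated cells do.

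The libraries held 14683468, 31905915 and 43443469 estimated counts on genes without doxycycline and 44680610, 47862394 and 46639141 with it. ZNF10, whose KRAB domain is the one commonly fused to dCas9, was read at 10.0, 11.8 and 10.7 CPM, counts scaled to library size, without doxycycline and at 362, 374 and 459 CPM with it, so the libraries followed their labels. All 12 markers of pluripotent cells that were checked were above 1 CPM in the cells, with SOX2 at 673, 623 and 580 CPM without doxycycline. Their summed level was 2969 to 3255 CPM without and 2461 to 2728 CPM with doxycycline, and 5 of the 12, among them NANOG, TDGF1 and DNMT3B, were lower and 0 higher by the test used for all genes below (0 higher at an unadjusted p under 0.05 and by DESeq2). Of 17 markers of differentiated derivatives, 12 were tested and 4 were higher (GATA6, MIXL1, NES and TUBB3), their summed level being 610 to 629 CPM without and 719 to 868 CPM with doxycycline, most of it NES and HAND1. AFP, APOA1, SOX17, TBXT and CGA stayed under the filter. By that test, 8.97% of all 16371 genes tested were higher and 8.48% lower. The part of these markers in the changes described below was not tested.

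The promoters of the respiratory chain genes were examined first for the letters GCCATNTT, the core of the YY1 motif. They were searched on both strands from 250 bases before to 50 bases after the 5′ end of the most abundant transcript. They stood in 32 of the 90 promoters (35.6%), against 9.17% of the promoters of the protein-coding genes tested in the RNA-seq data. The 21 sites below are all those within 50 bases of the 5′ end in genes with a YY1 peak in both libraries without doxycycline. A peak counted if it reached within 1000 bp of the 5′ end, and whether a site lay inside it was not tested. The sites belong to 22 genes, since ATP5MF and ATP5MF-PTCD1 share one. The first 11 belong to genes that rose with doxycycline in the RNA-seq data, and those from NDUFA9 on, with ATP5MF-PTCD1, to the 11 genes that were not called. Each is 30 bases of GRCh37 (hg19) on the strand on which the letters read, with the letters in capitals.
SDHB, chr1:17380499-17380528, plus strand: cgaccaccgccGCCATCTTggctcctgacg
UQCRFS1, chr19:29704010-29704039, minus strand: gagcggctgtcGCCATGTTgtcggtagcat
UQCR10, chr22:30163374-30163403, minus strand: acgtcgcggccGCCATGTTtcttcacagtc
NDUFA7, chr19:8386227-8386256, plus strand: gggtggcggacGCCATCTTccgtccgcgat
NDUFS4, chr5:52856479-52856508, minus strand: ttgacaccgccGCCATCTTgctgcaggcaa
NDUFS7, chr19:1383912-1383941, minus strand: ctgacagcaccGCCATCTTggcctcggcct
COX8A, chr11:63742078-63742107, plus strand: cggccagcgcaGCCATTTTggcttcctgac
COX6A1, chr12:120875916-120875945, minus strand: caccaactaccGCCATTTTtgatctggact
COX7B, chrX:77154946-77154975, plus strand: cccggctgaaaGCCATTTTgtttttcagct
ATP5F1B, chr12:57039732-57039761, minus strand: acccggactacGCCATGTTggggtttgtgg
ATP5MF, chr7:99063749-99063778, plus strand: caccaactgacGCCATTTTggagtcctggt
NDUFA9, chr12:4758279-4758308, minus strand: gtgcggcagccGCCATCTTttcccacaatc
UQCRC1, chr3:48647038-48647067, plus strand: ccacggacgccGCCATCTTccagctgcagt
ATP5PB, chr1:111992073-111992102, plus strand: acttgtgagcgGCCATCTTggtcctgccct
NDUFA3, chr19:54606173-54606202, minus strand: acttactcgcaGCCATCTTtgtctccgcgg
NDUFB8, chr10:102289593-102289622, plus strand: ccctggccaccGCCATCTTcaccttcttca
NDUFS3, chr11:47600630-47600659, minus strand: ccgccgccgccGCCATGTTactcagatgca
NDUFS6, chr5:1801518-1801547, minus strand: tcatcgccgccGCCATTTTgcgccgctggc
NDUFV2, chr18:9102728-9102757, plus strand: cagtgtggcccGCCATGTTcttctccgcgg
SDHC, chr1:161284182-161284211, minus strand: gcaacagcgcaGCCATCTTgggttccggtc
ATP5PO, chr21:35288052-35288081, plus strand: ctgctggggcaGCCATCTTctcccgggcgg

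Across the 71 respiratory chain genes with such a peak outside chromosome 8, 30 sites were found in 29 genes, the shared one counted for each of its genes. The median position of the sites, with upstream ones counted as negative, was 16 bases downstream of the 5′ end. Of the 30 sites, 19 lay downstream of it, within the transcribed sequence. On 19 of the 30 the letters read against the direction of the gene. In 19 genes, SDHB, UQCRFS1, NDUFA7, NDUFS4, COX6A1 and ATP5F1B among them, an annotated start codon lay inside the letters. The letters spell ATG on the opposite strand wherever they occur, and on their own strand where they read GCCATGTT. In UQCRFS1 and ATP5F1B, where the letters read GCCATGTT in the direction of the gene, the start codon was the ATG on that strand. The median distance from the summit of the YY1 peak was 12 bases in replicate 1 and 11.5 bases in replicate 2, and 26 and 23 of the sites were within 50 bases of it.

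The same promoters were searched on both strands for the core of the NRF1 motif (GCGC and TGCGC with 1 base between them) and for CCGGAAG, that of ETS factors. The NRF1 letters stood in 21 of 90 (23.3%, against 10.1% of tested genes) and the ETS letters in 22 (24.4%, against 16.7%). By complex, the YY1 letters were in 14 of 38 promoters of complex I, 2 of 4 of complex II, 5 of 9 of complex III, 3 of 19 of complex IV and 8 of 20 of complex V. Of the 30 genes that rose, 14 held the YY1 letters, 6 the NRF1 letters and 11 the ETS letters, and of the 54 tested genes that were not called, 17, 14 and 11 did.

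To place the genes by level, TPM, reads scaled by transcript length and library size, were summed per gene, which allows comparison between genes of different length. Respiratory chain mRNAs were abundant in SCi-NCCITs. Without doxycycline, 65 of the 90 genes stood at 100 TPM or more and 12 under 10 TPM, and the 90 together made up 23834 ± 437 TPM (SD, n = 3). The order within a complex was not sharp, since 24 of 37 neighbouring pairs in complex I and 8 of 19 in complex V overlapped between libraries.

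In complex I the highest levels were those of NDUFB5, an accessory subunit of the membrane arm, at 910 ± 48.3 TPM (SD, n = 3), and NDUFS5 at 748 ± 35.3 TPM. The lowest were NDUFC2-KCTD14 at 6.64 ± 0.866 TPM and NDUFA6 at 1.95 ± 0.397 TPM. The reading of NDUFA6 came from 1 of its 3 matched transcripts, and 11.8% of the transcripts in the files had no gene in the annotation, so reads of NDUFA6 and of NDUFA3 (15.9 ± 2.95 TPM) may stand on transcripts that were not counted here. In complex II, SDHC, a membrane anchor, was highest (238 ± 10.1 TPM) and SDHA, the flavoprotein that oxidises succinate, lowest (90.9 ± 2.69 TPM).

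In complex III, UQCRH, the hinge protein, was highest at 1585 ± 22.4 TPM, and UQCRFS1, the Rieske iron-sulfur protein, was at 33.8 ± 1.24 TPM. UQCRHL, a close copy of UQCRH, was at 0.268 ± 0.0172 TPM, and reads may be divided between the pair in ways these files do not show. In complex IV, COX8A (813 ± 37.1 TPM) and COX5A (662 ± 16.1 TPM) led. In complex V, the highest were ATP5F1B, the catalytic β subunit (1094 ± 17.1 TPM), and ATP5MC3, a c-ring gene (670 ± 8.84 TPM), and the lowest above the filter was ATP5MF-PTCD1 (9.15 ± 1.28 TPM).

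**Figure D1:**
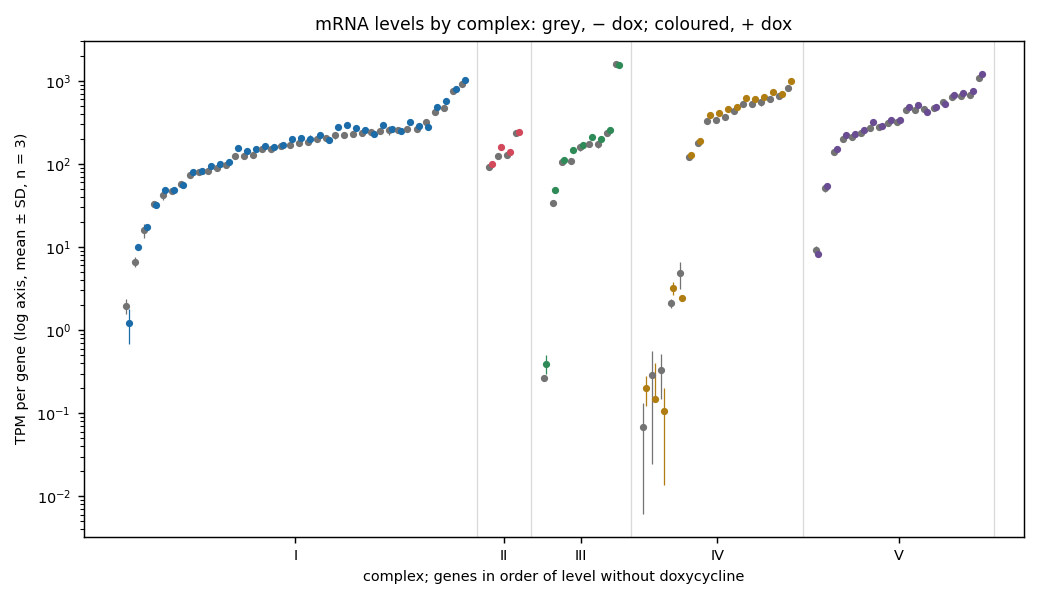
TPM per gene on a log axis for the 87 respiratory chain genes above 0.05 TPM without doxycycline, ordered by that level within complexes I to V. Points are means of 3 libraries with SD bars, grey without and coloured with doxycycline, and most genes of complex IV stand between 100 and 1000 TPM while its tissue-specific isoforms lie under 10 TPM.

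Complex IV has subunits with paralogs used in particular tissues, and in SCi-NCCITs the mRNA came mostly from the widely expressed form. COX4I1 was at 552 ± 45.3 TPM and COX4I2, the lung and hypoxia form, had between 0 and 5 estimated counts in the 6 libraries. COX6A1 was at 521 ± 29.1 TPM, and COX6A2, the heart and muscle form, had 0 counts in each library, which allows up to 0.204 CPM in the shallowest of them. COX7A2 was at 370 ± 24.9 TPM and COX7A2L, a factor of supercomplex assembly, at 122 ± 2.56 TPM, where COX7A1, the muscle form, had between 0 and 4 counts.

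The same held for the remaining pairs. COX7B was at 333 ± 22.7 TPM and COX7B2 had 0 counts in each library. COX8A stood against COX8C, with between 0 and 3.5 counts. COX6B1 was at 529 ± 4.01 TPM and COX6B2, the testis form, at 2.12 ± 0.281 TPM, and NDUFA4 was at 180 ± 11.1 TPM and NDUFA4L2, a form induced by hypoxia, at 4.88 ± 1.76 TPM. The sixth gene that did not pass the filter was ATP5MGL of complex V, with 0 counts without doxycycline and at most 3.15 with it.

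The question put to these genes was whether their mRNA differed between cells with and without doxycycline. Many rose by a small amount. By edgeR's quasi-likelihood test at an adjusted p of 0.05 over all genes, 30 of the 84 tested genes were higher with doxycycline and 0 were lower, where 8.97% of all 16371 genes tested were higher and 8.48% lower (17.5% in either direction). Among protein-coding genes of at least 20 CPM, 11.4% were higher, against 29 of 77 respiratory chain genes at that level. At an unadjusted p under 0.05 it was 55 higher and 0 lower, and by DESeq2 42 and 0. The fitted change was above 0 in 76 genes and below 0 in 8, with a median log2 fold change of 0.20 (15.2%) where the median over all genes was -0.0025. All 30 called genes had their 3 libraries with doxycycline above the 3 without, and 52 of the 84 did (19.2% of all genes), while 0 had all 3 below (17.8%). The 30 changes ran from 0.19 to 0.69 on the log2 scale, and a further 19 genes had an adjusted p between 0.05 and 0.1. In such bulk RNA, a change in the share of cells with a given state and a change in RNA per cell cannot be told apart.

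The count depended on single libraries. Without replicate 2 of the cells without doxycycline 14 genes were called, without replicate 1 with doxycycline 16, and without replicate 2 with doxycycline 13. Replicate 2 without doxycycline was the lowest of its group in 61 of the 84 genes and replicate 2 with doxycycline the highest of its group in 61, and replicate 3 with doxycycline was the lowest in 69. In each of the 6 fits that left out a library, 13 of the 30 genes were called, namely NDUFA1, NDUFA7, NDUFB3, NDUFB4, NDUFB7, NDUFC2-KCTD14, SDHB, UQCR10, UQCRFS1, UQCRQ, COX7A2, COX8A and ATP5IF1. The median change stayed between 0.17 and 0.24 across these fits and 0 genes were called lower in any of them. With DESeq2, 42 genes were called, among them all 30, and with a required log2 change of 0.5 only UQCRFS1 and NDUFC2-KCTD14 were left.

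**Figure D2:**
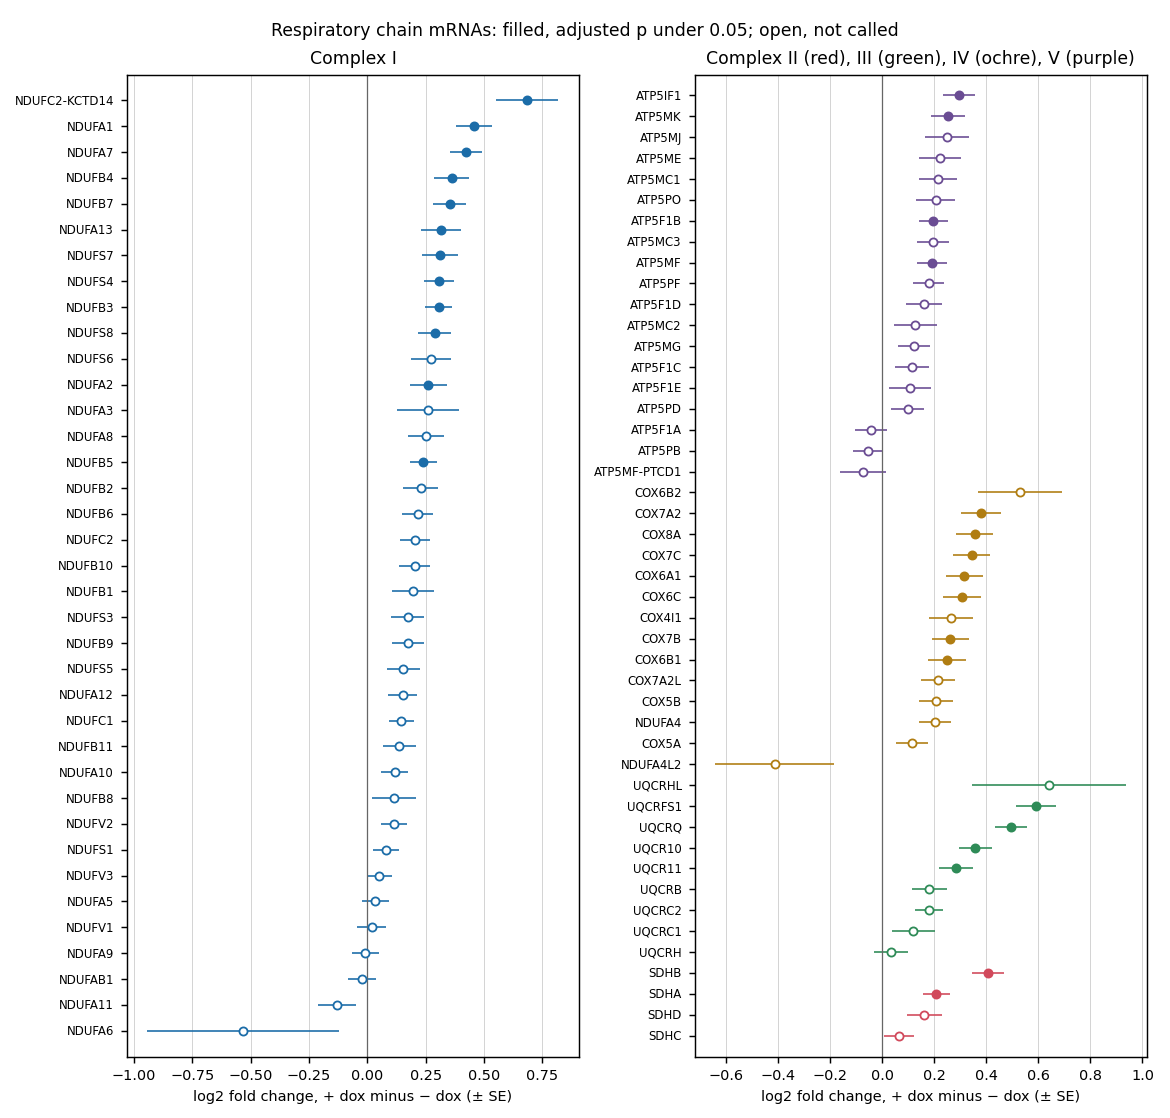
Log2 fold change with doxycycline of 83 of the 84 tested respiratory chain genes with its SE, complex I at left and complexes II to V at right. Filled points are the 29 genes shown with an adjusted p under 0.05, all of them right of 0.

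**Figure D3:**
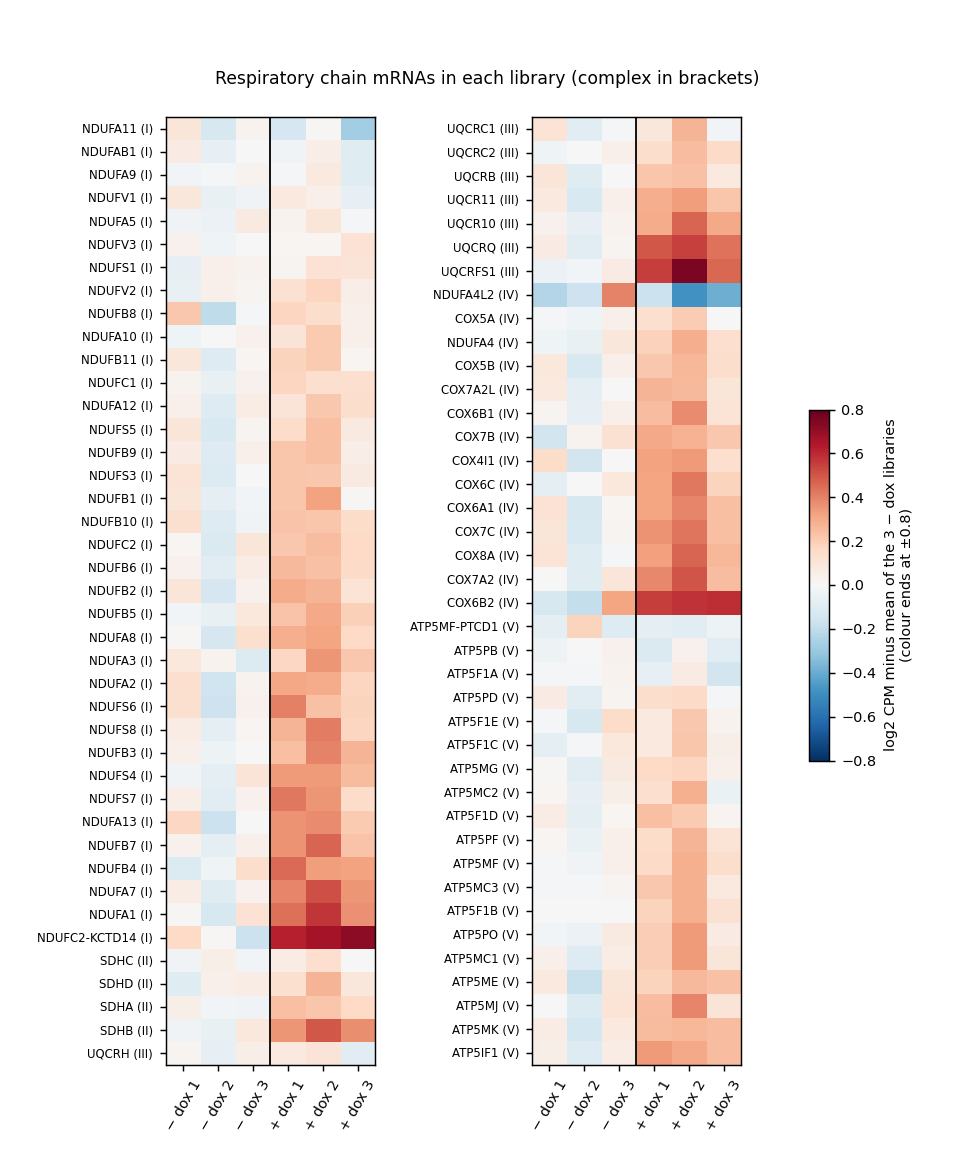
Level of 81 respiratory chain genes of at least 1 CPM in each library, as log2 CPM minus the mean of the 3 libraries without doxycycline, with colours ending at 0.8 either way. Red predominates in the 3 columns with doxycycline and is palest in replicate 3, the lowest of its group in 69 of the 84 tested genes.

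Complex I oxidises NADH and is the largest of the complexes. Of its 38 genes 13 rose, with a median log2 fold change of 0.20, and 34 were fitted above 0. NDUFA1, an accessory subunit of the membrane arm, was read at 42.3, 38.5 and 45.5 CPM without doxycycline and at 56.9, 62.4 and 54.1 CPM with it. Its log2 fold change was 0.46 ± 0.078 (SE) with an adjusted p of 0.0046 by edgeR, and the groups did not overlap. NDUFA7, an accessory subunit of the peripheral arm, was read at 39.9, 35.7 and 39.2 CPM and then at 50.05, 54.7 and 48.8 CPM, a change of 0.42 ± 0.068. The largest fitted change was that of NDUFC2-KCTD14, at 2.66, 2.40 and 2.11 CPM against 3.67, 3.77 and 3.91 CPM (0.69 ± 0.133, adjusted p of 0.0084 by edgeR), which shares its first exons with NDUFC2, so its reads are assigned by estimate.

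Among the core subunits of complex I, NDUFS7 and NDUFS8 were called, while NDUFS1, NDUFS3, NDUFV1 and NDUFV2 were not. NDUFV1, which binds NADH, was at 255, 230 and 236 CPM against 254, 247 and 229 CPM, with groups that overlapped throughout. Of the 31 accessory subunits, 10 were called, with a median of 0.20. Among the smallest called changes in complex I were those of NDUFB5 (0.24) and NDUFA2 (0.26), and the most abundant, NDUFB5, rose from 467, 456 and 503 CPM to 556, 587 and 543 CPM. NDUFS5 was fitted at 0.15 (adjusted p of 0.17 by edgeR) with overlapping groups. NDUFA11, chosen after its values were seen as the lowest fitted gene of complex I above 1 CPM, was at 102, 87.8 and 97.8 CPM against 87.2, 96.3 and 79.2 CPM, and its fitted -0.13 did not pass the test (adjusted p of 0.31 by edgeR).

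Complex II is the succinate dehydrogenase of the citric acid cycle. Its catalytic subunits SDHA and SDHB were called and its anchors SDHC and SDHD were not, and the difference between the pairs was not tested. SDHB, the iron-sulfur subunit, was at 89.4, 87.4 and 96.3 CPM without doxycycline and at 116, 128 and 118 CPM with it. Its change was 0.41 ± 0.062 (SE), with an adjusted p of 0.0028 by edgeR and no overlap of the groups. SDHA was at 144, 137 and 137 CPM and rose to 165, 162 and 155 CPM (0.21 ± 0.052, adjusted p of 0.026 by edgeR), and 12.6% of the counts on SDHA and its pseudogenes stood on the pseudogenes. SDHD (0.16) and SDHC (0.06) had adjusted p-values of 0.13 and 0.47 by edgeR.

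Complex III passes electrons from ubiquinol to cytochrome c. Of its 9 genes 4 rose and all 9 were fitted above 0, with a median of 0.28. UQCRFS1 was at 73.4, 74.7 and 79.2 CPM without doxycycline and at 111.0, 127.4 and 104.2 CPM with it. It rose by 0.59 ± 0.078 (SE), or 50.5%, with an adjusted p of 0.0012 by edgeR, and the lowest library with doxycycline stood well above the highest without. Its gene lies at chr19:29696227-29704058 of GRCh37 on the minus strand, and 14.5% of the counts on UQCRFS1 and its pseudogenes stood on the pseudogenes. UQCRQ, a small subunit that binds ubiquinone (chr5:132202322-132204539, plus strand), was at 36.8, 33.2 and 35.7 CPM and then at 49.6, 51.4 and 47.7 CPM, a change of 0.50 ± 0.061 with the lowest adjusted p of the whole set (0.00082 by edgeR).

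UQCR10 (0.36) and UQCR11 (0.28), small subunits of the same complex, also rose, from 70.9 to 76.0 CPM and 82.2 to 94.7 CPM without doxycycline to 91.1 to 102.2 CPM and 104.3 to 112.7 CPM. The core proteins UQCRC1 (0.12) and UQCRC2 (0.18) were not called, UQCRC2 with an adjusted p of 0.051 by edgeR. UQCRH, the most abundant, was at 453, 427 and 463 CPM against 472, 482 and 420 CPM. UQCRHL stood between 0.395 and 0.755 CPM in all libraries and its adjusted p was 0.17 by edgeR.

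Complex IV, cytochrome c oxidase, had 7 of 14 tested genes called, with a median of 0.26. By symbol prefix alone, without NDUFA4 and NDUFA4L2, it was 7 of 12 and 0.28. COX7A2 was at 118.9, 111.7 and 127.5 CPM and rose to 155.7, 169.1 and 141.7 CPM (0.38 ± 0.077, adjusted p of 0.010 by edgeR). COX8A was at 212, 184 and 196 CPM and rose to 247, 273 and 237 CPM (0.35 ± 0.072). COX7C was at 205, 176 and 194 CPM and rose to 245, 257 and 226 CPM (0.34 ± 0.073). In these 3 genes, all small single-span subunits, the groups did not overlap.

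The smallest called changes in complex IV were those of COX6C (0.31), COX7B (0.26) and COX6B1 (0.25), and COX6A1 rose by 0.31. COX4I1, which starts the assembly of the holoenzyme with MT-CO1, was at 251, 204 and 227 CPM against 283, 287 and 249 CPM, and its fitted 0.26 had an adjusted p of 0.059 by edgeR. COX5A (0.11), COX7A2L (0.21) and NDUFA4 (0.20) did not pass the test either. Of the tissue forms, COX6B2 was at 1.91, 1.83 and 2.60 CPM against 3.07, 3.12 and 3.15 CPM, a fitted 0.53 ± 0.162 with an adjusted p of 0.052 by edgeR. NDUFA4L2 was at 1.02, 1.07 and 1.58 CPM against 1.07, 0.858 and 0.914 CPM.

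Complex V, the ATP synthase, had 4 of 19 tested genes called, with a median of 0.18. ATP5IF1, an inhibitor that blocks hydrolysis of ATP by the enzyme, was at 78.3, 70.5 and 79.2 CPM and rose to 95.9, 93.5 and 89.9 CPM (0.29 ± 0.061, adjusted p of 0.011 by edgeR). ATP5MK, a small membrane subunit, was at 77.2, 67.2 and 77.9 CPM and rose to 87.9, 89.1 and 87.6 CPM (0.25 ± 0.065). ATP5F1B was at 1284, 1291 and 1286 CPM and rose to 1456, 1568 and 1399 CPM (0.20 ± 0.056, adjusted p of 0.040 by edgeR), and the groups did not overlap. ATP5MF rose by 0.19 and was called in none of the fits that left out a library.

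The 3 genes for the c ring, the rotor through which protons pass, encode the same mature protein and were not called. ATP5MC1 was at 65.3, 59.1 and 66.0 CPM against 72.8, 80.2 and 67.8 CPM (0.21, adjusted p of 0.077 by edgeR). ATP5MC2 was at 325, 306 and 331 CPM against 351, 390 and 308 CPM (0.13, adjusted p of 0.33 by edgeR). ATP5MC3 was at 365, 362 and 373 CPM against 425, 446 and 387 CPM (0.19, adjusted p of 0.059 by edgeR), and its groups did not overlap. Of the 5 genes of the F1 head 1 was called, and of the 4 of the peripheral stalk 0, with 2 at an unadjusted p under 0.05 and 1 by DESeq2. ATP5F1A, the α subunit that pairs with ATP5F1B, and ATP5PB of the stalk, named after their values were seen, were fitted at -0.05 and -0.06 with overlapping groups.

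As TPM, the summed level of the 90 genes was 23834 ± 437 without and 26297 ± 928 with doxycycline (SD, n = 3). The sum for complex I went from 7732 ± 227 to 8582 ± 243, for complex II from 583 ± 11.6 to 641 ± 18.2, and for complex IV from 5474 ± 135 to 6357 ± 261, with no overlap of the libraries. For complex III it went from 2574 ± 52.2 to 2702 ± 119, where the libraries overlapped. For complex V it went from 7471 ± 116 to 8014 ± 302, with no overlap.

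Respiratory chain mRNAs are short, and the response to doxycycline in these libraries moved with transcript length over all genes. The median length was 802 nt for the respiratory chain genes and 2880 nt for all protein-coding genes tested. Among other protein-coding genes, the median log2 fold change was 0.12 under 800 nt, 0.13 from 800 to under 1200 nt, 0.08 from 1200 to under 2000 nt and -0.09 at 5000 nt or more. The respiratory chain genes stood at 0.25 (n = 41), 0.20 (n = 21) and 0.19 (n = 12) in the first 3 of these classes, and at 0.16 (n = 4) from 2000 to under 3000 nt and 0.07 (n = 6) from 3000 to under 5000 nt. Under 800 nt, 46.3% of the respiratory chain genes and 20.3% of the other genes were called higher, and from 800 to under 1200 nt 33.3% and 18.3%. From 1200 to under 2000 nt it was 16.7% and 12.5%. With counts rescaled by the effective length kallisto gave in each library, 22 genes were called, 21 of them among the 30, and the median change was 0.19. On these counts, 39.0% of the respiratory chain genes and 15.3% of the other genes were called higher under 800 nt, 23.8% and 11.25% from 800 to under 1200 nt, 0% and 7.93% from 1200 to under 2000 nt, 0% and 6.24% from 2000 to under 3000 nt and 16.7% and 3.99% from 3000 to under 5000 nt, so the order of the shares turned in 2 of the 5 classes, which hold 12 and 4 respiratory chain genes. The part of transcript length in the changes of single genes was not tested.

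Transcripts of 1 gene also shifted against each other. Shares were computed from the estimated counts of transcripts in genes of at least 500 counts in each library, and carry no test. In ATP5F1C, the γ subunit that turns inside the F1 head, the transcript ENST00000356708.12 carries exon 9 of 10, 37 nt at chr10:7848937-7848973 (GRCh37), which ENST00000335698.4 skips. The form without the exon held 21.9%, 21.6% and 23.5% of the counts without doxycycline and 36.1%, 32.2% and 32.9% with it. The form with the exon went from 74.1%, 74.5% and 72.6% to 59.8%, 64.1% and 63.2%. ATP5F1C as a whole was fitted at 0.11 with an adjusted p of 0.26 by edgeR. These were the largest shifts between means in the set, and the libraries of the 2 groups did not overlap.

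NDUFV3, an accessory subunit of complex I, has a long form with an exon of 1095 nt that its short form lacks. That form, ENST00000354250.7, went from 12.5%, 8.82% and 8.41% to 6.22%, 6.40% and 6.41% of the counts, and ENST00000340344.4, the short form, from 53.5%, 52.8% and 53.0% to 59.1%, 59.8% and 59.1%. In NDUFA7, the coding transcript ENST00000301457.2 went from 45.7%, 47.7% and 39.9% to 51.6%, 50.5% and 51.6%, with the rest almost all on a transcript annotated as a target of nonsense-mediated decay. These 3 genes were named after their values were seen.

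YY1 ChIP-seq was a readout that the rule for choosing the genes did not use. A gene was counted when both libraries of a condition held a peak that reached within 1000 bp of the 5′ end of its most abundant transcript, wherever the summit lay. Without doxycycline, 74 of the 90 respiratory chain genes (82.2%) carried a YY1 peak, against 59.4% of the tested protein-coding genes, and with doxycycline 77 (85.6%), against 67.2%. In 73 genes a peak was found in all 4 libraries. Complex I had 35 of 38 without doxycycline, complex II 4 of 4, complex III 8 of 9 and complex V 18 of 20. Complex IV had 9 of 19, and the isoforms COX4I2, COX6A2, COX6B2, COX7A1, COX7B2, COX8C and NDUFA4L2 were among the genes with none. With the summit required inside the window, 70 of the 90 genes were counted without doxycycline (77.8%, against 56.7% of tested genes). With doxycycline it was 73 (81.1%, against 64.5%). The tested genes were not matched for mRNA level here, in the peak heights below or in the motif counts above. At least 20 CPM was reached by 77 of 84 tested respiratory chain genes and by 8101 of 15199 tested protein-coding genes. The part of mRNA level in these shares was not tested.

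The peaks were also high. The median fold enrichment at the summit was 21.7 and 23.5 over the respiratory chain genes with a peak in the 2 libraries without doxycycline, against 7.98 and 8.39 over tested protein-coding genes. With doxycycline it was 24.3 and 26.4 against 8.53 and 9.10. Both medians were higher with doxycycline, and 2 libraries against 2 cannot reach an exact p of 0.05, so no test was made. The highest values were those of NDUFA13 (105 and 100 without, 104 and 118 with doxycycline), UQCRH (107 and 98.3, then 84.2 and 78.5) and NDUFS6 (111 and 61.1, then 99.5 and 82.9), named after their values were seen. At UQCRFS1 it was 23.3 and 21.7 without and 39.4 and 40.0 with doxycycline, and at SDHB 59.1 and 53.2, then 53.2 and 54.2.

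The change in mRNA was also set beside the presence of a YY1 peak. Of the 74 tested genes with a peak without doxycycline 27 rose, with a median of 0.20, and of the 10 without one 3 rose, with a median of 0.25. Over tested protein-coding genes 9.10% of those with a peak and 9.62% of those without one rose, with medians of -0.01 and 0.01. Of the 32 promoters with the YY1 letters 30 carried a peak (93.8%), as did 92.8% of tested genes with the letters. Of the 58 without the letters 44 did (75.9%), against 56.0% of tested genes. YY1 mRNA itself was at 136, 142 and 141 CPM without and 132, 125 and 133 CPM with doxycycline (-0.10, adjusted p of 0.20 by edgeR).

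H3K9me3, the mark that KRAB deposits, was rare at these promoters, as it was at those of all tested protein-coding genes. Without doxycycline 2 of the 90 genes (COX8A and COX8C) held a peak in both libraries, with doxycycline 1 (COX8C), and COX8C held 1 in the NCCITs without dCas9-KRAB too. Over tested protein-coding genes the shares were 2.31%, 2.01% and 1.83%. In single libraries between 2 and 5 genes carried a peak in the SCi-NCCITs, 5 and 3 without and 2 and 5 with doxycycline. ATP5F1B, for one, had a peak in replicate 1 of both conditions and in replicate 2 of neither. None of the genes that rose had H3K9me3 peaks in both libraries with doxycycline. With such peaks at 2.01% of tested protein-coding genes, that is near the share over all of them.

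OCT4, the pluripotency factor encoded by POU5F1, had 1 library a condition, so its values have no replicate check. Without doxycycline 30 of the 90 genes (33.3%) held an OCT4 peak, against 41.6% of tested protein-coding genes, 19 of them in complex I, 7 in complex V, 3 in complex IV, 1 in complex III and 0 in complex II. With doxycycline 2 did (NDUFA9 and NDUFS3), against 4.70%. Peaks were thus fewer near all tested genes, and the depth of these libraries is unknown.

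The other genes of the pathway were read from fixed lists. Over all genes tested, 8.97% were called higher and 8.48% lower. Of the 13 mRNAs encoded in mitochondrial DNA, 10 rose and 0 fell, with a median of 0.39. They code for the partner subunits of complexes I, III, IV and V, and MT-CYB, the cytochrome b of complex III, went from 1436, 1836 and 1633 CPM to 2984.5, 3633 and 3083 CPM (0.98 ± 0.101, adjusted p of 0.00029 by edgeR). MT-ATP6 and MT-ATP8, which share a transcript, rose by 0.76 and 0.75. MT-CO1, MT-ND4 and MT-ND5 were not called. The libraries were made from poly(A)-selected RNA, and the poly(A) tails of mitochondrial mRNAs are short.

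Of the 57 factors that assemble the complexes, 14 rose (24.6%, against 8.97% of all genes tested) and 2 fell (against 8.48%), with a median of 0.15. Complex IV had the largest share, with 9 of 24 higher and 1 lower. COX17, the copper chaperone of complex IV, rose by 0.66, COX14 by 0.54 and PET100 by 0.52. Complex I had 2 of 19 higher (TIMMDC1 and COA1) and 1 lower (NDUFAF7, -0.32), and its 10.5% higher was near the share over all genes. Complex II had 1 of 4 higher (SDHAF4, 0.53) and complex III 2 of 6 (UQCC3, 0.43, and UQCC1). Complex V had 0 of 4, of which 1 had an unadjusted p under 0.05 and 0 were called by DESeq2. LRPPRC, which stabilises mitochondrial mRNAs, fell from 555, 596 and 572 CPM to 440, 481 and 485 CPM.

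Of 17 genes for electron carriers and ubiquinone synthesis, 4 rose (23.5%, against 8.97% of all genes tested) and 0 fell (against 8.48%). CYC1, the cytochrome c1 of complex III, rose by 0.35, CYCS, cytochrome c, by 0.27, and COQ5 by 0.23, and ETFA was the fourth. Of 18 genes of the citric acid cycle and pyruvate entry, 6 rose (33.3%) and 0 fell, with SUCLG2 (0.46), OGDH (0.33) and IDH2 (0.28) in front.

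Of 15 regulators of mitochondrial genes, 0 rose and 4 fell, against 8.97% and 8.48% of all genes tested, with a median of -0.11. MYC fell by 0.70, PPARGC1A, a coactivator of mitochondrial biogenesis, by 0.62, TFB1M by 0.24 and TFAM, which packages mitochondrial DNA, by 0.21. NRF1 (-0.11), GABPA (-0.11), GABPB1 (-0.01), ESRRA (0.19), PPARGC1B (0.12), PPRC1 (-0.15), TFB2M (-0.02), POLRMT (0.06), SP1 (-0.24) and HIF1A (-0.11) did not pass the test. For the lists in which edgeR called 0 genes in a direction, the counts at an unadjusted p under 0.05 and by DESeq2 were 0 and 0 lower for the mitochondrial mRNAs, 3 and 1 lower for the electron carriers, 0 and 0 lower for the citric acid cycle and 0 and 0 higher for the regulators. Over these pathway lists together 40 genes were called by edgeR. The count was 24 without replicate 2 and 22 without replicate 3 of the cells without doxycycline, and 26 and 19 without replicates 1 and 2 of those with it.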

How the data were processed

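The 90 genes and the gene lists were chosen with earlier results of these data known. Per the labels, reads were handled with BWA, kallisto and deepTools on hg19. For RNA-seq, from poly(A) RNA and 100 bp paired reads, the files deposited hold, for each transcript, an estimated count and a TPM value as kallisto wrote them. The version and transcriptome release are not given in the sources used here. Transcripts were matched to GENCODE release 44 lifted to GRCh37 (88.2% of transcripts, 95.9% to 96.0% of counts), the estimated counts of each gene were added up and rounded, and edgeR 4.0.16 in R 4.3.3 compared the 3 libraries of each condition over all genes (filterByExpr, TMM, glmQLFit, glmQLFTest, Benjamini-Hochberg adjustment). CPM use TMM library sizes. The labels do not say whether replicates were separate cultures, so p-values measure the spread between these libraries, which differed by 7.43 to 14.6 times counting variance (chi-square per gene). The scripts were tested on simulated counts with known log2 changes of 1 in either direction, of which 82.9% were recovered, and 4.76% of the calls were false. Changes as small as the 0.19 to 0.69 of the called respiratory chain genes were not simulated. The correlation of deviations between libraries of the same number was 0.13, 0.08 and -0.001, so numbers were not taken to pair libraries.

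For ChIP-seq, the authors called peaks per sample (FDR of 5%) from reads with a mapping quality over 10. The deposited lists give the summit's fold enrichment as a ratio and −log10 p and q. They give no read depth. Promoter sequence came from GRCh37 with pysam 0.24.0, start sites from the transcript with the highest mean count. The limit given for a count of 0 (3 counts per library) covers counting error only. The 12 per-sample columns of a table of YY1 HiChIP contacts were not used.

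Named genes were, per complex, the 3 called genes with the largest and the 3 with the smallest change, the c-ring genes, the isoform pairs of complex IV, ATP5IF1, the SDH genes, the 2 highest and 2 lowest by TPM, genes under the filter, the 3 largest called changes of each list and all regulators. Others are said to be named after their values were seen, or stand as members of a count. Some of the latter, among them NDUFV1, UQCRC1, UQCRC2 and LRPPRC, are given with values though these rules did not pick them. A gene that is counted but not reported here by name was left out of the text and of the plots with gene names. Alternatives were DESeq2 1.42.0, its size factors, other filters, a replicate block, length-scaled counts, protein-coding transcripts only, counts summed with 189 pseudogenes, a log2 change of at least 0.5, each library left out in turn, and for peaks other windows, a −log10 q of at least 5, summits only and, added after seeing the data, the 5′ end of the gene record.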

Additional observations from a re-analysis of the deposited data

How the results depend on the processing

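The median log2 fold change of the respiratory chain genes stayed between 0.17 and 0.24 under each alternative, and 0 of them were called lower in any. With each library left out in turn, 13 to 38 were called, against 30 in the full fit, 1399 to 3260 of all genes, against 2858, and 19 to 43 genes of the pathway lists, against 40. The median TPM ran from 196 to 204 without and from 213 to 224 with doxycycline. A required log2 change of 0.5 left 2 of the respiratory chain genes, 976 of all genes and 10 of the lists. Length-scaled counts gave 1901 of all genes and 26 of the lists. The replicate block, which the pairing check did not call for, gave 34 respiratory chain genes, 28 of them shared with the full fit. Direction was checked in 68 named genes. Further genes that the text names were not among them, such as NDUFA2, NDUFB3, NDUFB4, NDUFB7, NDUFS4, NDUFS7, NDUFS8, COX6C, UQCR11, ATP5MF and LRPPRC. None of those 68 that was called changed direction under any alternative. Of those not called, 4 fitted near 0 did. With a library left out, the log2 fold change ran from -0.00528 to 0.0923 for UQCRH (below 0 without replicate 2 of either condition), from -0.135 to 0.0262 for ATP5MF-PTCD1 (above 0 without replicate 2 without doxycycline), from -0.0596 to 0.00735 for TFB2M (above 0 without replicate 1 with doxycycline) and from -0.0319 to 0.00935 for GABPB1 (above 0 without replicate 3 with doxycycline), and GABPB1 was at 0.0451 with length-scaled counts.

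H3K9me3 at promoters rested on few peaks. With doxycycline 1 gene was counted in both libraries and 2 to 5 when either was left out, 0 within 250 bp, 10 within 5000 bp, 0 by summit and 2 from the 5′ end of the gene record. Without doxycycline it was 2, and 3 to 5, 0, 13 and 4 in the same order, leaving summits aside, and 1 at a −log10 q of at least 5. OCT4 peaks went from 30 to 18 genes without doxycycline at that q, and with doxycycline from 2 to 1 at that q, 1 within 250 bp and 10 within 5000 bp. YY1 peaks stood at 76 to 77 genes without and 78 with doxycycline when a library was left out. The peak lists hold no depth, and the RNA-seq comparison had 3 libraries a condition.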
